A study of Homo sapiens with 6 samples.

Results

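The NSL (non-specific lethal) complex is one of the assemblies in which KAT8, also called MOF, works as a histone H4 acetyltransferase. The 10 genes described here are 8 NSL subunits apart from KAT8 (KANSL1, KANSL2, KANSL3, PHF20, MCRS1, WDR5, HCFC1 and OGT) and the paralogs KANSL1L and PHF20L1. They form a list of gene names, which were found by matching the Ensembl identifiers of the table to GENCODE release 29 symbols. All 10 were among the 58721 rows of the table and all 10 were among the 20713 genes with enough reads to test. The libraries were made from polyadenylated RNA of A549 cells, a human lung adenocarcinoma line, in 2 groups of 3. WT cells overexpressed wild-type KAT8, and R98W cells overexpressed a KAT8 in which tryptophan replaces an arginine. By the labels both groups carry an introduced KAT8 beside the chromosomal gene, which the KAT8 counts below did not bear out in 1 library. The sources used here name neither the vector and its promoter nor whether the cells were pools or clones, and no library without overexpression was used here. Values below are listed in the order of replicates 1 to 3. Library totals ran from 90007121 to 110152936 counts.

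In the NSL complex, KANSL1 is the scaffold that binds KAT8, and KANSL2 and KANSL3 are core subunits. PHF20 reads methylated lysine through its Tudor domain, WDR5 is a WD40 platform shared with the histone H3 methyltransferase complexes, and MCRS1 is shared with the INO80 remodeller. HCFC1 is a large transcriptional co-factor that is cleaved into its mature form by OGT, the enzyme that attaches O-linked N-acetylglucosamine (O-GlcNAc) to nuclear and cytosolic proteins. The complex is known for binding the promoters of widely expressed genes, whereas MSL, the other KAT8 complex, is known for bulk acetylation of histone H4. The single comparison, R98W against WT, asks how transcripts of the partners of KAT8 stand when the overexpressed form is the altered one.

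Upstream sequences of 4 genes are shown because OGT, KANSL2 and KANSL1L had the largest rises among the members, while PHF20 did not pass the test. They are RefSeq windows on GRCh38.p14, read 5′ to 3′ toward the start site, without bases that lie in a GENCODE exon. Capitals mark matches, on either strand, to GGGCGG (the GC box of Sp and KLF factors), CCAAT, or GCGCATGCG (a core of the NRF1 element). The OGT window is chrX:71532854-71533082 on the plus strand. The KANSL2 window is chr12:48682239-48682488 and the KANSL1L window chr2:210171410-210171517, both on the minus strand. The PHF20 window is chr20:35771765-35771973 on the plus strand.
OGT: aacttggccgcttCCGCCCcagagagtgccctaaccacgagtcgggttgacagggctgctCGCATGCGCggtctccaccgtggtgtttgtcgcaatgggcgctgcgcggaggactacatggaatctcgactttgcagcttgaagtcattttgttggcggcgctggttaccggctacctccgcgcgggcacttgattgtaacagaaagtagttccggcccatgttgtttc
KANSL2: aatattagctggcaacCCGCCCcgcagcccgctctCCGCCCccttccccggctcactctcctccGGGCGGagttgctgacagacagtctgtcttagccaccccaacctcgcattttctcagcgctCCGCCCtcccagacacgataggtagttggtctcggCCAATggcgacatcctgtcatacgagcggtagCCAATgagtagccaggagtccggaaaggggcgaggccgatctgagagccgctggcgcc
KANSL1L: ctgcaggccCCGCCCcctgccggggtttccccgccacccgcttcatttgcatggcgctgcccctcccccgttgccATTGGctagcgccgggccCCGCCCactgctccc
PHF20: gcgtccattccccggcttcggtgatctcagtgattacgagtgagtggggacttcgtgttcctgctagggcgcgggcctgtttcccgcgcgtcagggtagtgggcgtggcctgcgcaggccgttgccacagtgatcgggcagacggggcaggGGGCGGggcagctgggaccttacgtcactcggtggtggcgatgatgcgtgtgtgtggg

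The OGT stretch held 1 GC box and 1 NRF1 core. The KANSL2 stretch held 4 GC boxes and 2 CCAAT boxes, and the KANSL1L stretch held 2 GC boxes and 1 CCAAT box. PHF20 had 1 GC box in the stretch shown. Over 34788 distinct RefSeq windows of 250 bases before a start site, 42.6% held GGGCGG, 1.62% held GCGCATGCG and 11138 held CCAAT. Of the 10 members, 8 had at least 1 window in the table, and some had several, 14 windows in all. GGGCGG was found in 10 of the 14 windows, the count to set beside 42.6%. By gene it was found for 7 of the 8, all but MCRS1. CCAAT was found in 3 of the 14 windows, for KANSL1L, KANSL2 and WDR5, and GCGCATGCG in 1, for OGT. WDR5 did not pass the test. The search also covered CCGGAAG (ETS factors), TGACGTCA (the cAMP response element), CACGTG (E-box), AAGATGGCG (YY1) and ACTACAATT (ZNF143 with THAP11). CCGGAAG was found in 2 of the 14 windows, for KANSL3 and WDR5. CACGTG was found in 4 of the 14, for WDR5, MCRS1, KANSL1 and PHF20 (there outside the stretch shown). TGACGTCA, AAGATGGCG and ACTACAATT were found for no member. The windows of all genes held CCGGAAG in 8.5%, CACGTG in 6.31%, TGACGTCA in 1.64%, AAGATGGCG in 0.655% and ACTACAATT in 0.316% of cases. These matches describe letters only.

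KAT8 counts went against 1 label. KAT8 stood at 12.2 CPM (read counts scaled to a common library size) in the library labelled WT replicate 1, at 195 and 184 CPM in WT replicates 2 and 3, and at 166, 196 and 236 CPM in R98W. The library labelled WT replicate 1 may therefore not overexpress KAT8, and every WT mean and fold change below includes it unless stated. The WT and R98W ranges of KAT8 overlapped (log2 fold change 0.61 ± 0.48 SE, adjusted p = 0.362 by edgeR). Without that library the log2 fold changes of the members were 0.43 for OGT, 0.43 for KANSL1L, 0.28 for KANSL2, 0.29 for KANSL1, -0.39 for PHF20L1 and -0.29 for MCRS1, all still called, and 0.17 for KANSL3, 0.00055 for PHF20, 0.0051 for WDR5 and 0.047 for HCFC1, not called. KANSL1, KANSL3, WDR5, HCFC1 and OGT had their highest WT value in it, and the other 5 members did not. The part of the KAT8 level in any difference below was not tested. Of the cell line's markers, KRT8 lay between 4203 and 4515 CPM, CDH1 between 138 and 166 CPM and ALDH1A1 between 9186 and 11705 CPM. EPCAM was low, at 3.30 to 8.29 CPM, and the lung genes NKX2-1, SFTPC and SFTPB did not exceed 0.132 CPM. Of 6 markers of other cell types, PTPRC, PECAM1, CDH5, DCN and PDGFRB did not exceed 0.632 CPM, while the collagen gene COL1A1 stood at 10.0 to 14.2 CPM.

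The members moved in both directions and by modest amounts. OGT, KANSL1L, KANSL2 and KANSL1 were higher in R98W, PHF20L1 and MCRS1 were lower, and KANSL3, PHF20, WDR5 and HCFC1 did not pass the test. Calls are from edgeR's quasi-likelihood test over all tested genes at a Benjamini-Hochberg adjusted p under 0.05. The 4 higher members stand beside 16.2% of all tested genes and 25.4% of the 8228 genes within the members' range of mean expression (10.2 to 158 CPM). The 2 lower members stand beside 18.5% and 20.6%. In either direction 6 of 10 members were called, against 34.8% of all tested genes and 46.0% of those in that range. The median log2 fold change was 0.08 over the members, 0.04 over genes in that range and -0.005 over all tested genes. R98W and WT values did not overlap in 7 of 10 members, and in 45.6% of all tested genes. The counts were again 4 higher and 2 lower without the library labelled WT replicate 1. In that setting all tested genes had 3268 higher and 3944 lower.

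**Figure D1:**
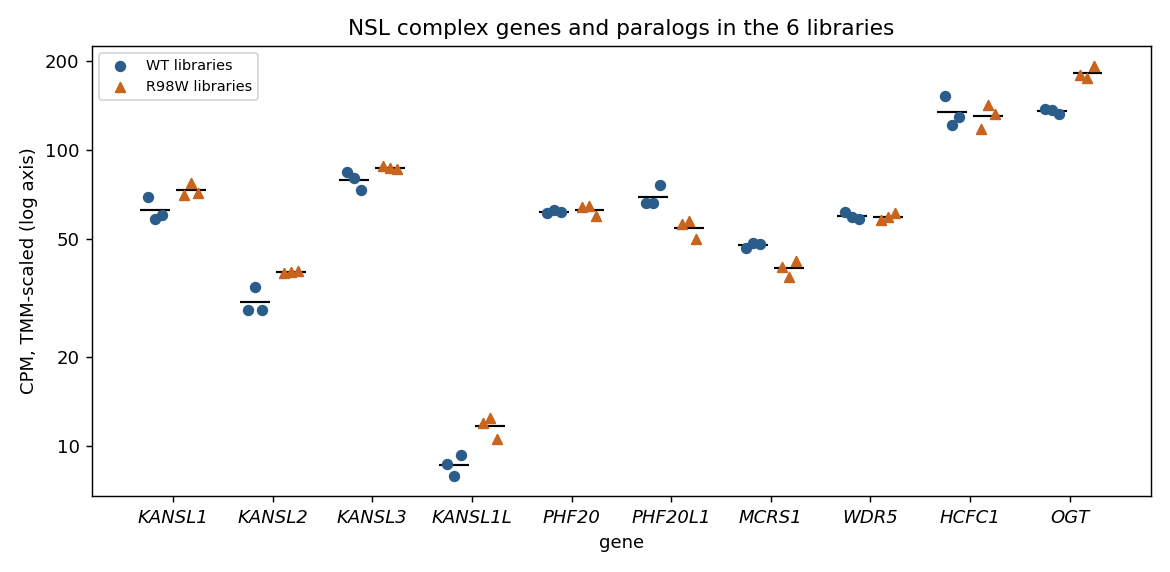
Expression of the 10 genes in each library, in CPM on a log axis. Points are libraries (circles WT, triangles R98W) and bars are group means of 3. The R98W points of OGT, from 175 to 191 CPM, lie above its WT points, from 132 to 137, and those of PHF20L1 lie below.

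OGT had the smallest p of the members. OGT (ENSG00000147162, chromosome X, 71533083 to 71575897, hg38) stood at 137, 136 and 132 CPM in WT and at 179, 175 and 191 CPM in R98W. All 3 R98W libraries were above every WT library, and the WT libraries were close together. The means were 135 ± 2.8 CPM in WT and 182 ± 8.4 CPM in R98W (SD, n = 3), a rise of 34.5%. The log2 fold change was 0.43 ± 0.06 (SE, adjusted p = 3.81e-05 by edgeR), and OGT stayed past the threshold in all 16 alternatives, from 0.30 to 0.46. A change at least this large in either direction was seen in 30.6% of all tested genes. HCFC1 (ENSG00000172534, chromosome X, 153947553 to 153971807), the substrate that OGT cleaves, had 152, 122 and 129 CPM in WT and 117, 142 and 132 CPM in R98W. The groups overlapped in part, and the log2 fold change was -0.04 with a 95% interval of -0.22 to 0.13 (adjusted p = 0.747 by edgeR).

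Of the 3 KANSL subunits, KANSL2 and KANSL1 rose in R98W and KANSL3 did not pass the test. KANSL2 (ENSG00000139620, chromosome 12, 48653401 to 48682238) had 28.9, 34.4 and 28.8 CPM in WT and 38.3, 38.8 and 38.9 CPM in R98W. The R98W libraries were nearly level with each other and above the highest WT library. KANSL2 rose by 25.9% (log2 fold change 0.33 ± 0.08 SE, adjusted p = 0.00281 by edgeR). KANSL1 (ENSG00000120071, chromosome 17, 46029916 to 46225389) had 69.1, 58.5 and 60.2 CPM in WT and 70.3, 77.2 and 71.5 CPM in R98W. Its lowest R98W library stood just above the library labelled WT replicate 1, so the groups barely separated. The KANSL1 log2 fold change was 0.22 ± 0.07 (SE, adjusted p = 0.0245 by edgeR). The KANSL1 call was lost when WT replicate 2 (adjusted p = 0.0963 by edgeR), WT replicate 3 (0.131) or R98W replicate 2 (0.133) was left out, after a correction for expression level (0.101), and at a threshold of 0.01. Over all 16 alternatives its adjusted p ranged from 0.00461 to 0.133. KANSL3 (ENSG00000114982, chromosome 2, 96593170 to 96642787) had 84.2, 80.6 and 73.0 CPM in WT and 87.9, 87.2 and 85.9 CPM in R98W. Its groups did not overlap, but the difference was small and did not pass (log2 fold change 0.13, 95% interval -0.01 to 0.28, adjusted p = 0.139 by edgeR). KANSL3 passed in 1 of 16 alternatives, a correction for exon length, at an adjusted p of 0.0475.

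KANSL1L, the paralog of the scaffold, was the least abundant member, and its log2 fold change was level with that of OGT. KANSL1L (ENSG00000144445, chromosome 2, 210021423 to 210171383) had 8.73, 7.96 and 9.34 CPM in WT and 12.0, 12.5 and 10.6 CPM in R98W. Every R98W library exceeded every WT library. Its log2 fold change was 0.43 ± 0.10 (SE, adjusted p = 0.00296 by edgeR), and it was past the threshold in all 16 alternatives. KANSL1L shares 837 exonic bases with RPE on the other strand, and the strand setting of the counting is not given, so reads there cannot be assigned with certainty. RPE, at 114 CPM in WT and 120 CPM in R98W, did not pass the test (log2 fold change 0.07, adjusted p = 0.472 by edgeR). Within a library the level of KANSL1L was 0.133, 0.143 and 0.162 of that of KANSL1 in WT and 0.176, 0.167 and 0.155 in R98W. The ratios overlapped between groups, and the mean log2 ratio differed by 0.19 (two-sided exact permutation p = 0.2, adjusted p = 0.2 over 3 ratios, where 3 against 3 cannot go under 0.1).

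**Figure D2:**
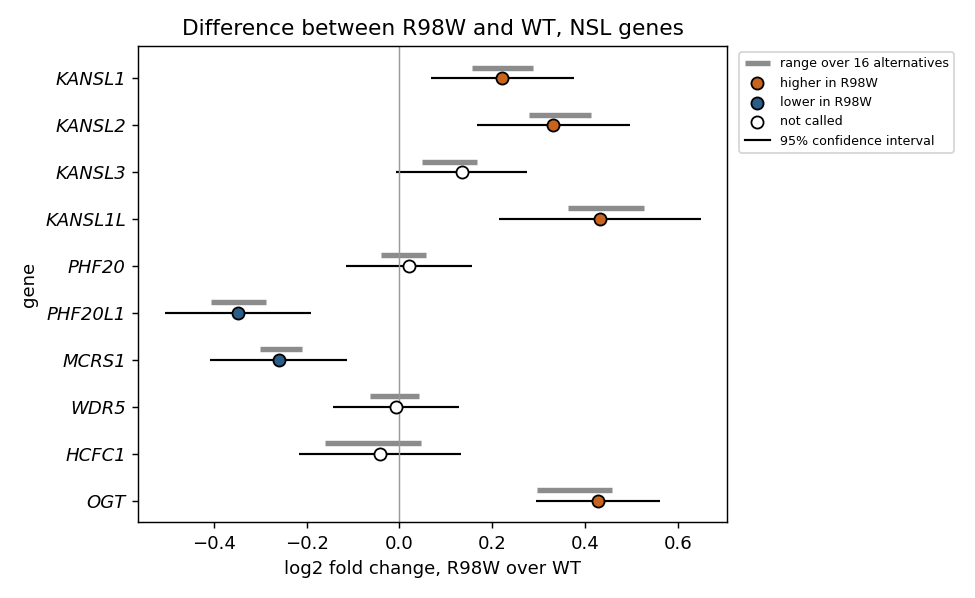
Log2 fold change of R98W over WT for each gene (points) with its 95% confidence interval (thin lines) and the range over 16 alternatives (grey bars). Filled points passed the edgeR threshold, and the intervals of KANSL3, PHF20, WDR5 and HCFC1 cross 0.

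Of the 2 Tudor-domain readers, PHF20L1 fell and PHF20 did not pass the test. PHF20 (ENSG00000025293, chromosome 20, 35771974 to 35950381) had 61.2, 62.7 and 61.9 CPM in WT and 64.2, 64.5 and 59.7 CPM in R98W. These values overlapped, and the log2 fold change was 0.02 with a 95% interval of -0.12 to 0.16 (adjusted p = 0.845 by edgeR). PHF20L1 (ENSG00000129292, chromosome 8, 132775358 to 132848807), a Tudor protein that also binds methylated lysine, had 66.3, 66.1 and 76.1 CPM in WT and 56.0, 57.5 and 50.2 CPM in R98W. All R98W libraries were below all WT libraries. PHF20L1 fell by 21.4%, a log2 fold change of -0.35 ± 0.07 (SE, adjusted p = 0.00124 by edgeR), and passed in all 16 alternatives, from -0.41 to -0.29. There were 1.08, 1.05 and 1.23 PHF20L1 reads per PHF20 read in WT and 0.874, 0.892 and 0.842 in R98W, without correction for length. The ratio was above 1 in every WT library and below 1 in every R98W library, and the mean log2 ratio differed by -0.36 (two-sided exact permutation p = 0.1, the smallest p possible here, and adjusted p = 0.15 over 3 ratios).

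**Figure D3:**
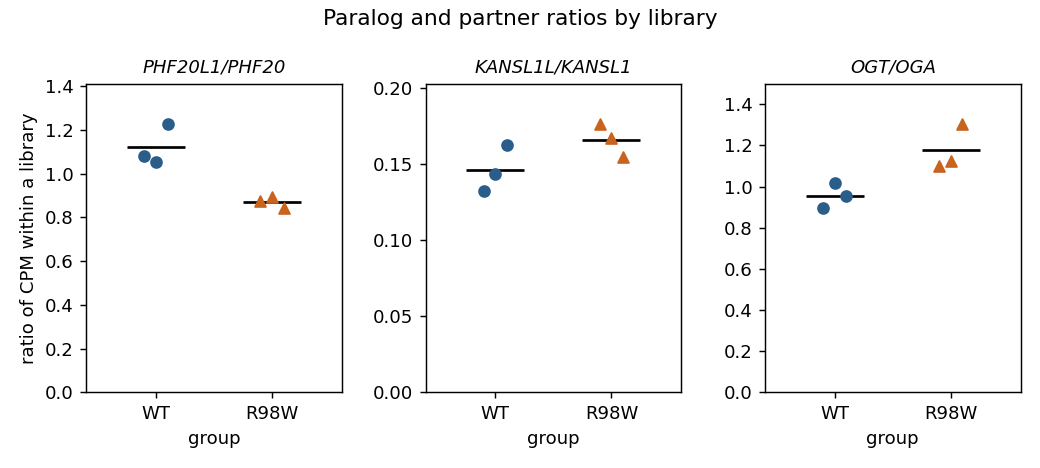
Ratio of CPM between 2 genes within each library, not corrected for length, for PHF20L1 over PHF20, KANSL1L over KANSL1 and OGT over OGA. Points are libraries and bars are means of 3. WT and R98W do not overlap for the first and last ratio.

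Of the 2 subunits shared with other chromatin complexes, 1 fell and the other did not pass. MCRS1 (ENSG00000187778, chromosome 12, 49556544 to 49568153) had 46.7, 48.4 and 48.2 CPM in WT and 40.3, 37.1 and 42.2 CPM in R98W. The WT libraries were tight and all above the R98W ones. MCRS1 fell by 16.5%, a log2 fold change of -0.26 ± 0.07 (SE, adjusted p = 0.00717 by edgeR). Without R98W replicate 2, its lowest library, the MCRS1 value was -0.21 and the call ended at an adjusted p of 0.0624, the highest of 0.00294 to 0.0624 over the alternatives. WDR5 (ENSG00000196363, chromosome 9, 134135365 to 134159968) had 61.8, 59.4 and 58.3 CPM in WT and 58.0, 59.3 and 61.3 CPM in R98W. Its groups covered nearly the same range, and the log2 fold change was -0.01 with a 95% interval of -0.14 to 0.13 (adjusted p = 0.945 by edgeR).

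Per kilobase of annotated exon, OGT was the most abundant member in both groups and KANSL1L the least. In WT, OGT stood at 24.7 ± 0.52 CPM per kb (SD, n = 3), MCRS1 at 22.7 ± 0.43 and WDR5 at 19.0 ± 0.57. KANSL3 at 15.4 ± 1.1 and HCFC1 at 14.9 ± 1.8 CPM per kb overlapped. KANSL2 followed at 11.3 ± 1.2, then PHF20 at 10.5 ± 0.13 and KANSL1 at 10.2 ± 0.93. The KANSL1 values overlapped those of PHF20 and also those of KANSL2, and PHF20L1 stood lower, at 8.20 ± 0.67. KANSL1L was well below, at 1.75 ± 0.14 CPM per kb. In R98W the order of the means changed only in that KANSL1, at 12.0 ± 0.60, stood above PHF20, at 10.6 ± 0.45. OGT then stood at 33.3 ± 1.5 CPM per kb. MCRS1 at 18.9 ± 1.2 and WDR5 at 18.9 ± 0.53 CPM per kb overlapped in R98W, so their order was not resolved there. HCFC1 at 14.5 ± 1.4 and KANSL2 at 14.3 ± 0.13 overlapped as well. The summed level of the 8 subunits was 641, 602 and 591 CPM in WT and 655, 681 and 683 CPM in R98W. Every R98W sum was above every WT sum, but without OGT the sums of the other 7 overlapped, at 504, 466 and 459 CPM in WT and 476, 506 and 492 CPM in R98W.

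Some members share bases with other genes, which bears on the counts because the strand setting is unknown. MCRS1 shares 14 exonic bases with KCNH3 on the other strand, whose R98W values, at most 1.77 CPM, were all below its WT values, at least 1.84 CPM (log2 fold change -0.51, adjusted p = 0.0479 by edgeR). KANSL1 shares 136 exonic bases with KANSL1-AS1, which had 0.918 CPM in WT and 1.35 CPM in R98W and did not pass. It also shares 304 exonic bases with ENSG00000262372, which had 0 counts in all 6 libraries. PHF20L1 shares 557 exonic bases with the antisense gene ENSG00000223697, which did not exceed 0.256 CPM in any library and did not pass (log2 fold change -0.06, adjusted p = 0.945 by edgeR). WDR5 shares 408 exonic bases with ENSG00000273249, at most 0.0632 CPM, KANSL3 shares 45 with FER1L5, at most 0.305 CPM, and KANSL1L shares 87 and 125 with a pair of antisense genes, at most 0.351 CPM. No other annotated gene overlaps OGT.

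The profile of each called member over the 6 libraries was set beside those of tested protein-coding genes above a low expression floor. Other members were left out of that search. Likeness was the root-mean-square difference of centred log2 values. The nearest genes were PLEKHB2 (0.0194) and NCK1 (0.0239) for OGT, RPL11 (0.0219) and VDAC2 (0.0256) for KANSL2, and RASSF8 (0.0178) and SHOC2 (0.0322) for KANSL1L. KANSL1 was nearest to RREB1 (0.00357) and EIF2S3B (0.0170), PHF20L1 to ZNF354A (0.0255) and ANKRD26 (0.0322), and MCRS1 to ACBD4 (0.0261) and CDCA5 (0.0269). Among the members themselves the closest pair was PHF20 and WDR5, at 0.0665, and KANSL2 and OGT stood at 0.0986. These distances are descriptions over 6 libraries.

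Several genes of the pathway that supplies and handles the substrate of OGT were higher. The hexosamine pathway turns fructose 6-phosphate into UDP-GlcNAc, which OGT uses, and OGA removes the sugar again. Of 9 genes of this pathway and its O-GlcNAc enzymes other than OGT, 6 were higher and 0 lower. Their median log2 fold change was 0.23. The shares higher and lower were 16.2% and 18.5% of all tested genes, and 25.4% and 20.6% of genes in the members' range of mean expression. GFPT1, the rate-limiting first enzyme, had 231, 186 and 196 CPM in WT and 322, 340 and 311 CPM in R98W. Its groups were widely separated (log2 fold change 0.67 ± 0.08 SE, adjusted p = 2.01e-06 by edgeR). GNPNAT1 rose by 0.29 on the log2 scale, GFPT2, the second form of the first enzyme, by 0.35, and UAP1, which makes UDP-GlcNAc, by 0.27. PGM3, given after its values were seen, was higher by 0.23, and its call held in 11 of 16 alternatives. Without the library labelled WT replicate 3, 2 of the 9 were called higher, and 5 were without the library labelled WT replicate 1. Over all tested genes, 2340 and 3268 were called higher in these settings, against 3364 with all 6 libraries.

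OGA stood at 154, 133 and 138 CPM in WT and at 163, 156 and 146 CPM in R98W. Its groups overlapped, and it did not pass (log2 fold change 0.13, 95% interval -0.02 to 0.28, adjusted p = 0.166 by edgeR). The OGT to OGA ratio was 0.894, 1.02 and 0.955 in WT and 1.10, 1.12 and 1.30 in R98W. The ratios did not overlap, and the mean log2 ratio differed by 0.30 (two-sided exact permutation p = 0.1, the smallest p possible here, and adjusted p = 0.15 over 3 ratios).

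**Figure D4:**
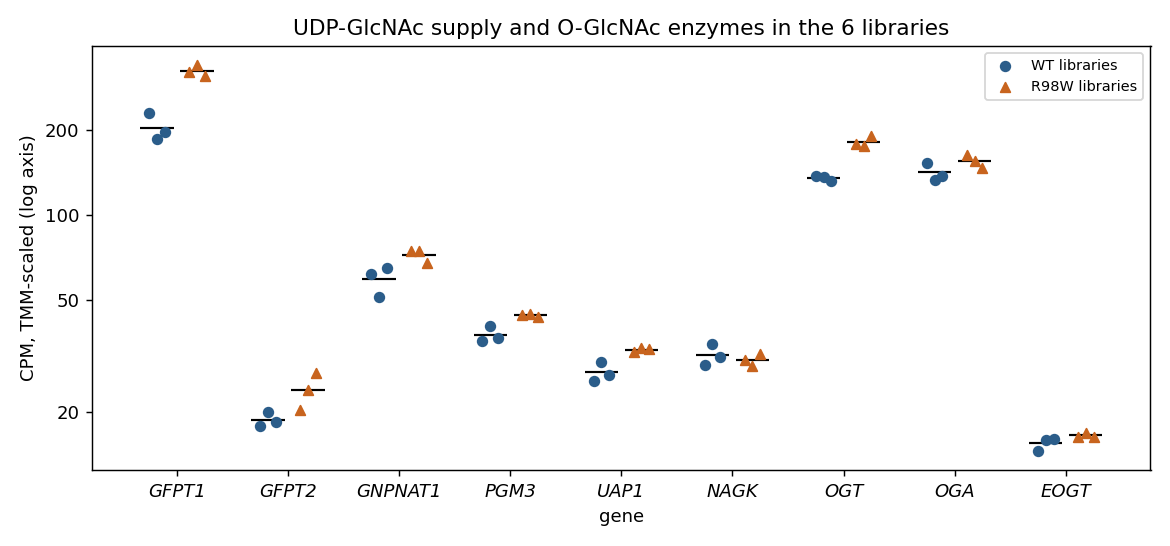
CPM on a log axis of enzymes that make UDP-GlcNAc or salvage its sugar (GFPT1 to NAGK), and of OGT, OGA and EOGT, in each library. Circles are WT, triangles R98W and bars means of 3. The R98W values of GFPT1, from 311 to 340 CPM, are all above its WT values, from 186 to 231.

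Among partners of the members in other complexes, single genes changed in both directions. The counts below are to be read beside 16.2% higher and 18.5% lower among all tested genes. In the members' range of mean expression these shares were 25.4% and 20.6%. Of the 4 MSL complex genes, KAT8 among them, 1 was called: MSL1, the scaffold of that complex (log2 fold change 0.20 ± 0.07 SE, adjusted p = 0.0232 by edgeR), whose call ended in 6 of 16 alternatives. MSL2 at 0.11 and MSL3 at -0.08 did not pass. Of 17 listed COMPASS partners of WDR5, from complexes that methylate histone H3, 1 was higher and 3 lower, the latter near the 18.5% of all tested genes. MEN1, the menin subunit, stood at 36.8 ± 1.5 CPM in WT and 24.7 ± 0.67 CPM in R98W (SD, n = 3), with a log2 fold change of -0.58 ± 0.07 (SE, adjusted p = 6.63e-06 by edgeR). CXXC1 had -0.38 and the methyltransferase KMT2A -0.28, and the demethylase KDM6A rose by 0.23. The KDM6A call held in 13 of 16 alternatives. The COMPASS core subunits RBBP5 at -0.11, ASH2L at -0.02 and DPY30 at 0.01, given after their values were seen, did not pass, as WDR5 did not.

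Of 10 ATAC acetyltransferase genes, a complex that also holds WDR5, 1 was higher and 3 lower, beside the same 16.2% and 18.5%. TADA3 had a log2 fold change of -0.38, KAT14 -0.25, MBIP -0.25 and KAT2B 0.22. The KAT2B and MBIP calls held in only 6 and 7 of 16 alternatives, and the KAT14 call in 12. Of 14 INO80 genes, the remodeller that holds MCRS1, 0 were higher and 2 lower (all tested genes: 16.2% and 18.5%), the ATPase RUVBL1 at -0.24 and TFPT at -0.39. The RUVBL1 call held in 15 of 16 alternatives and the TFPT call in 11. Among 18 listed partners of HCFC1, 3 were higher and 3 lower, shares near the 16.2% and 18.5% of all tested genes. HCFC2, the paralog of HCFC1, went from 9.03, 11.7 and 12.0 CPM in WT to 5.98, 5.35 and 6.07 CPM in R98W. That was the largest fall in these lists (log2 fold change -0.91 ± 0.12 SE, adjusted p = 1.02e-05 by edgeR). BAP1, a deubiquitinase that binds HCFC1, had -0.33, and CREBZF, a bZIP factor, and FOXK1 rose by 0.47 and 0.27. Together the 72 partner and pathway genes had 12 higher and 11 lower, near the shares of 16.2% and 18.5% among all tested genes. Among genes in the members' range of mean expression the shares were 25.4% and 20.6%. Without WT replicate 3 the 72 genes had 3 higher and 9 lower. All tested genes then had 2340 higher and 3060 lower, against 3364 and 3839 with all 6 libraries.

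**Figure D5:**
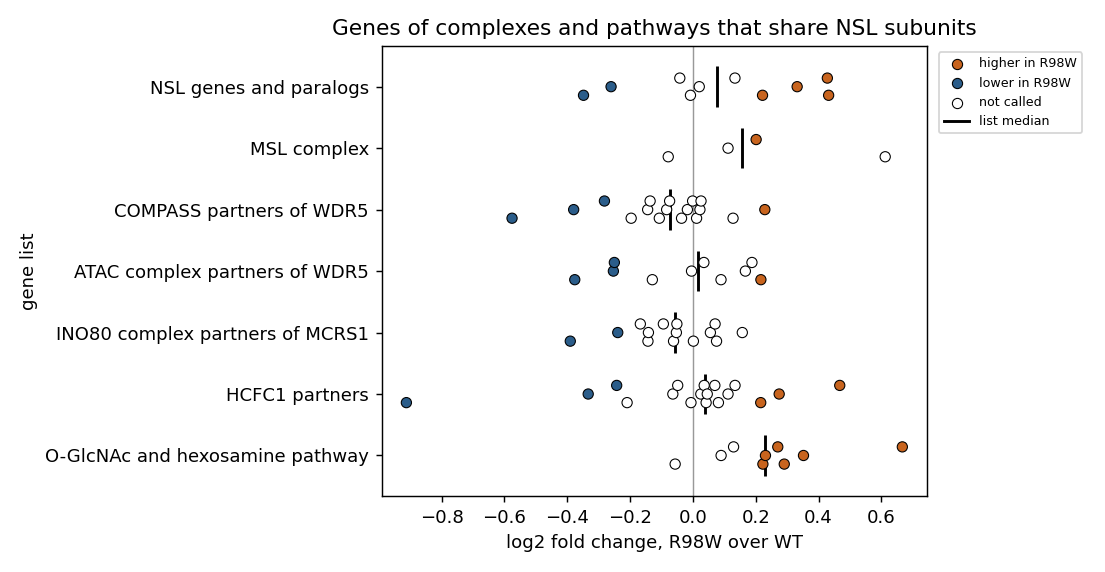
Log2 fold change of R98W over WT for the 10 members and for 6 lists of genes that share a complex or pathway with them. Each point is a gene, filled where it passed the edgeR threshold, and the vertical bars are list medians. The hexosamine list, with 6 of 9 genes higher, has a median of 0.23, and the COMPASS and INO80 medians are -0.07 and -0.06.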

How the data were processed

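The data are gene-level read counts of 6 RNA-seq libraries. The deposited table holds raw counts, whole numbers with no normalisation. Per the submitters' processing notes, the software was CASAVA 1.8, HISAT2 2.1.0 and HTSeq 0.11.3 and the build hg38, with no role stated. For annotation, strand setting and read filters the sources used here state nothing. Identifiers were matched to GENCODE 29: 58676 rows matched, and the other 45 carry a PAR_Y suffix.

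From these counts, genes were kept by filterByExpr (minimum count 10, total 15), scaled by TMM and fitted with edgeR 4.0.16 in R 4.3.3 on all 6 libraries without covariates, with adjustment over all 20713 tested genes. A positive log2 value means higher in R98W, with its SE from the test statistic. Each ratio was log2 with a pseudocount of 0.5 CPM and an exact permutation test. Nothing says that replicates were separate cultures, so p-values cover only a between-library spread that may be technical. No 2 libraries of a group agreed within sampling noise (chi-square per degree of freedom from 16.0 to 41.4). The biological coefficient of variation was 10%.

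Named genes were the 10 members, KAT8, MSL1, MSL2, MSL3, OGA, up to 4 called genes of smallest p per list, overlapping genes, and for called members the nearest genes on the chromosome and the 2 closest profiles. Of the genes counted in the hexosamine list, 1 is not reported here. The members and lists were chosen with earlier results of these data known. Alternatives were 2 other scalings, 2 other filters, a replicate block, each library left out, limma-voom (limma 3.58.1), DESeq2 1.42.0, a threshold of 0.01, and corrections for expression level and exon length. The pipeline was tested on simulated data.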

Additional observations from a re-analysis of the deposited data

How the results depend on the processing

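OGT, KANSL1L, KANSL2 and PHF20L1 kept direction and call in all 16 alternatives. Members that did not pass could change sign. PHF20 was -0.0398 after the expression-level correction. WDR5 was 0.0012 with DESeq2 size factors and 0.0012 with DESeq2, 0.0415 after the exon-length correction, and -0.035 to 0.0134 with single libraries left out. HCFC1 ranged from -0.117 to 0.0472 with single libraries left out. The lower members numbered 1 to 2 with single libraries left out, the 1 being without R98W replicate 2. In that setting all tested genes had 3115 lower. With single libraries left out the 72 partner genes had 3 to 11 higher, and the hexosamine list 2 to 5, both lowest without WT replicate 3. All tested genes had 2340 to 3268 higher in these settings, also lowest without WT replicate 3. At an adjusted p threshold of 0.01 the partner genes had 6 higher and 6 lower, and all tested genes 2143 higher and 2620 lower. The cause of these shifts was not tested, apart from the stricter threshold itself. Replicate numbers did not pair the libraries (correlations of same-numbered deviations 0.00564, -0.0392 and -0.0369). With the replicate block 4 members were higher and 2 lower, all tested genes had 3205 higher and 3678 lower, and the exact paired sign-flip p of the ratios was 0.25 for PHF20L1 over PHF20 and OGT over OGA and 0.5 for KANSL1L over KANSL1. Counting error is largest for KANSL1L, the member with the fewest reads, at least 869 in each library.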

Other observations

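The coding genes next to the called members on the chromosome moved in mixed directions. GCNA, beside OGT, had 0.864, 0.643 and 0.706 CPM in WT and 2.25, 1.39 and 1.99 CPM in R98W (log2 fold change 1.35, adjusted p = 0.000128 by edgeR), and TAF1 on the other side did not pass. CCNT1, a cyclin of the elongation factor P-TEFb, lies 6220 bases from KANSL2 and rose as KANSL2 did, by 0.30 on the log2 scale. PRPF40B starts 65 bases from MCRS1 on the opposite strand and fell as MCRS1 did, from 6.94 to 3.73 CPM, whereas SPATS2 on the far side of MCRS1 rose from 78.7 to 96.9 CPM. MAPT, next to KANSL1, fell from 4.45 to 2.41 CPM while KANSL1 rose. LRRC6, next to PHF20L1, had a log2 fold change of -3.55, from 1.22 to 0.103 CPM. Neighbouring genes were not compared with other pairs in the genome.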
